A study of Rattus norvegicus with 8 samples.

Results

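Cytochrome P450 genes were followed in rat kidney after 4 weeks of allopurinol. A gene was taken as a member where the transcript accession of an array probe mapped, in RefSeq's list of rat genes (assembly GRCr8), to a symbol of the form Cyp, number, letter, number; Cyp24a1 and Cyp27b1 were set apart. Of 101 such symbols in that list, 66 had a probe on the array, among 15637 gene symbols with a probe, and 35 had none and were not analysed here. These 66 genes were represented by 78 probes. Kidney RNA came from male SD (Sprague-Dawley) rats, 10 weeks old. The 4 control samples had received 0.5% methylcellulose, a vehicle, for 4 weeks. The 4 treated samples had received a compound labelled APL at 150 mg/kg for 4 weeks, which is read here as allopurinol, a xanthine oxidase inhibitor named in the series title, where the treated rats stand as a renal fibrosis model. The title speaks of tubules and the tissue label of kidney. Each sample was run on 1 single-colour array, and nothing in the labels says that the 4 samples of a group were 4 animals, so p-values measure the spread between these samples, which may be technical.

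P450 enzymes are haem proteins that insert 1 atom of oxygen into a substrate. Most sit in the endoplasmic reticulum and draw electrons from P450 reductase and cytochrome b5, whereas the mitochondrial members draw them from ferredoxin. In kidney, and above all in the proximal tubule, Cyp4a and Cyp4f enzymes hydroxylate arachidonate at its end to 20-HETE, and Cyp2c and Cyp2j enzymes turn it into epoxides; both products act on vessel tone and salt transport. Other subfamilies oxidise drugs and other foreign compounds, or make and break down steroids, bile acids, retinoids and vitamin D.

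All levels below are normalised signals: the processed signal of a probe divided by the 75th percentile of its array, with a floor at 0.005, so that 1 is the 75th percentile itself. A level at the floor is no measured level. That percentile was itself 291 ± 18 on control arrays and 455 ± 53 on allopurinol arrays (SD, n = 4 each). Their ratio was 1.56; a two-sided permutation test over all 70 splits gave 0.0286, its smallest possible value (exact p). Changes are thus relative to the array, and without scaling the median over all genes moved from -0.03 to 0.61 on the log2 scale. The number of arrays limits the precision. Arrays lay on 2 slides, each with a scan time of its own and with 2 control and 2 allopurinol arrays. Kidney identity was visible in the controls: the summed level of 11 proximal tubule markers was 587 to 674 there. Of 7 hepatocyte markers Alb was at the floor on all 8 arrays, and Ttr, Apoa1 and Cps1 were above background on too few to be tested. F2, Tf and Serpina1 were well above background on all 8 (2.22 to 3.34, 0.702 to 1.07 and 0.019 to 0.034 in controls).

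Of the 66 P450 genes, 46 passed the filter (well above background on at least 4 of 8 arrays) and were tested with limma, with p-values adjusted by the Benjamini-Hochberg method over 21420 genes and unnamed transcripts. At an adjusted p under 0.05, 15 were lower with allopurinol and 3 were higher, and 28 were not called. Over everything tested, 23.5% was called, with 11.5% lower and 11.9% higher. The P450 genes stood at 39.1% called, with 32.6% lower and 6.52% higher. Without scaling between arrays 15 were lower and 7 higher (Cyp2b3, Cyp2b15, Cyp4f17 and Cyp26a1 added), where all genes gave 5.34% lower and 27.5% higher. The median difference, allopurinol minus control on the log2 scale, was -0.46 over the 46 P450 genes and -0.03 over all genes; without scaling the medians were 0.18 and 0.61. Groups did not overlap for 18 of the 46, or 39.1%, against 29.9% of everything tested. Among the 28 P450 genes well above background on all 8 arrays, 10 were lower and 1 was higher, where 13.8% and 11.3% of the 17585 features under that filter were. Through the filter, Cyp2c11 passed on its control arrays alone, and Cyp3a9 and Cyp27a1 on their allopurinol arrays alone, so those genes had to differ.

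**Figure D1:**
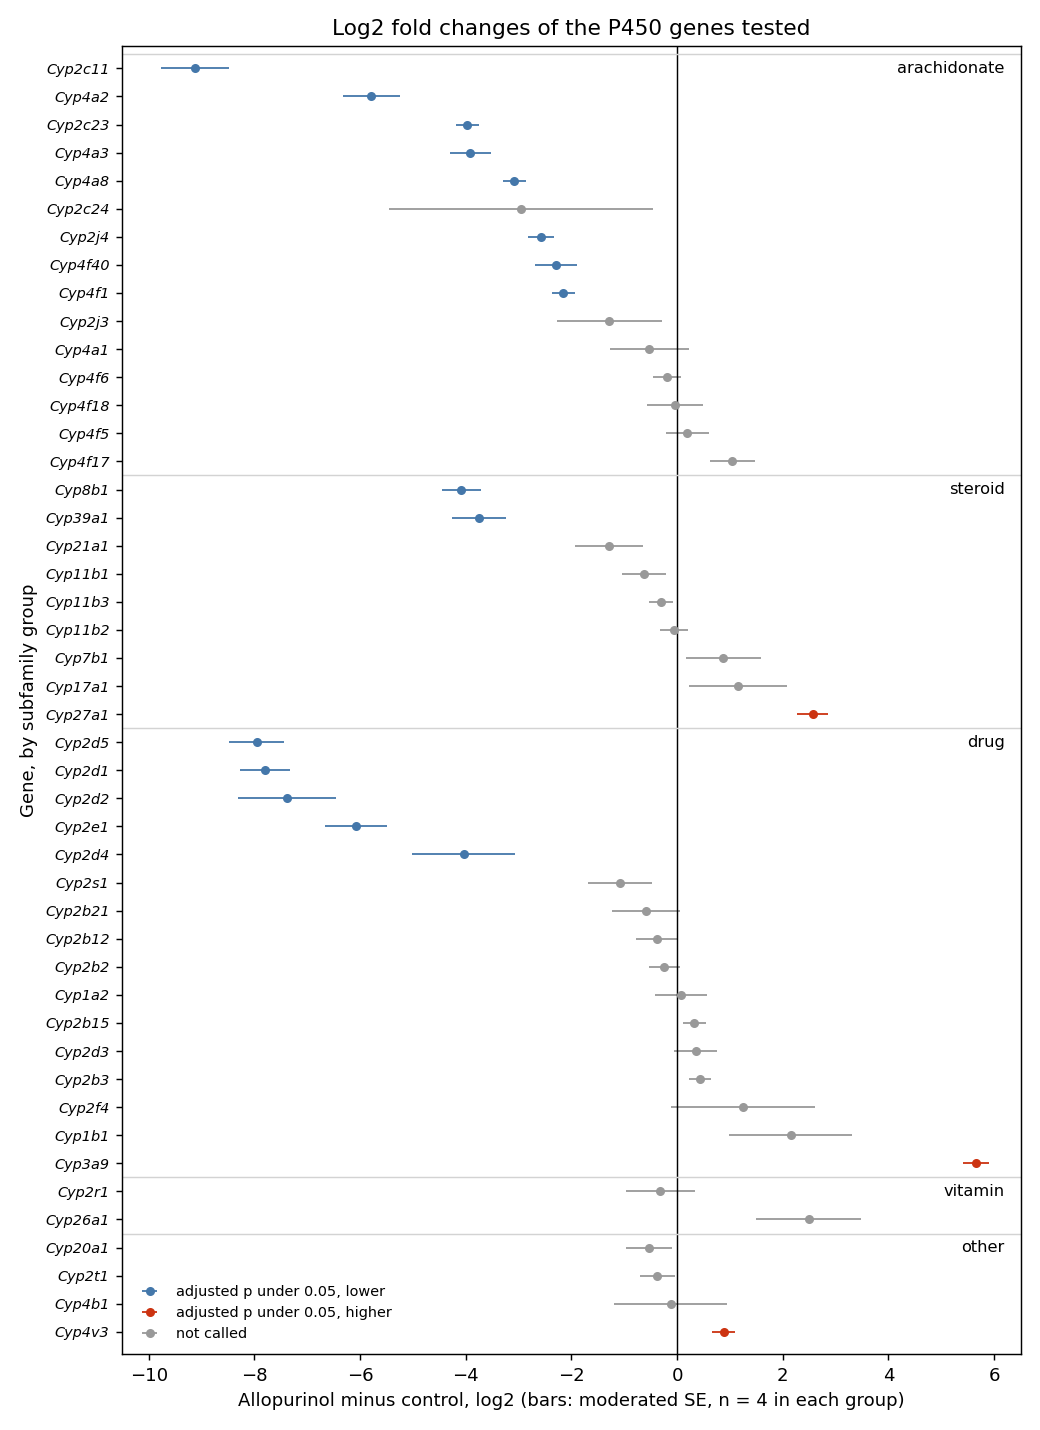
Log2 difference between allopurinol and control (x axis) for the 46 P450 genes tested (y axis), grouped by subfamily; points are estimates and bars the moderated standard error, n = 4 in each group. The 15 genes called lower lie between -9.12 and -2.15, and the 3 called higher at 0.88, 2.56 and 5.66. Cyp2c11 (-9.12), Cyp3a9 (5.66) and Cyp27a1 (2.56) had no array well above background in a whole group, so these estimates depend on the floor. With a floor of 0.02 they were -7.12, 3.66 and 0.93.

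The arachidonate subfamilies (Cyp2c, Cyp2j, Cyp4a and Cyp4f) held 22 genes, of which 15 were tested. Of these, 8 were lower (53.3%, against 11.5% of everything tested) and none was higher. The median log2 difference was -2.29. Of the 4 Cyp4a genes, fatty acid hydroxylases of the kidney, 3 fell, by 8.45-fold to 55.2-fold. Fewer cells that express a gene and less RNA per cell cannot be told apart in these whole-tissue samples, here or below.

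Cyp4a2, one of the enzymes that make 20-HETE in rat kidney, read 121, 142, 172 and 144 on control arrays 1 to 4 and 1.94, 2.35, 8.25 and 1.23 on allopurinol arrays 1 to 4. Every treated array was far below every control array, and allopurinol array 3 was the highest of its group. The log2 difference was -5.79 ± 0.54 (SE; adjusted p = 0.000274). Its close relative Cyp4a3 read 88.1, 129, 156 and 142 in controls and 11.4, 4.11, 12.5 and 8.36 after allopurinol. Again the groups were far apart, with allopurinol array 2 the lowest. The difference was -3.91 ± 0.39 (adjusted p = 0.000360). For Cyp4a8, a further member of this cluster on chromosome 5, the controls were at 105, 74.7, 85.1 and 76.5 and the treated samples at 9.86, 11.8, 11 and 7.85. The treated arrays lay close together and none reached the controls. The difference was -3.08 ± 0.22 (adjusted p = 6.91e-05). A second Cyp4a8 probe gave only -0.49, and the mean of both -1.79, so the probes of this gene differed in size though not in sign. Cyp4a1, the member best known as a target of Ppara in liver, was not called: it read 2.71, 0.632, 6.72 and 1.29 in controls and 2.60, 1.46, 1.45 and 0.629 after allopurinol. Its groups overlapped widely (-0.53 ± 0.75, adjusted p = 0.641). Cyp4a genes are near-identical in stretches, and how far each probe tells them apart was not tested.

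The starts of the 3 Cyp4a genes called lower are shown because Cyp4a2 and Cyp4a3, both lower, are alike there and Cyp4a8, lower too, is not. The RefSeq windows (250 bases before to 50 after the start, GRCr8) of Cyp4a2 and Cyp4a3 shared 284 of 305 aligned positions, or 93.1%; Cyp4a8 shared 58.2% with Cyp4a2 and 58.7% with Cyp4a3. The last 130 bases before each start follow, all on the minus strand of chromosome 5 and 5′ to 3′, at chr5:134170909-134171038, chr5:134352237-134352366 and chr5:133970227-133970356. Capitals mark AGGTCA, a recognition motif of nuclear receptors, which begins at -105 in both relatives and is not in the Cyp4a8 window.
Cyp4a2: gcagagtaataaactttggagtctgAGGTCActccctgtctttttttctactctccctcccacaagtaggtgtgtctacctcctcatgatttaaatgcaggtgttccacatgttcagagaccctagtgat
Cyp4a3: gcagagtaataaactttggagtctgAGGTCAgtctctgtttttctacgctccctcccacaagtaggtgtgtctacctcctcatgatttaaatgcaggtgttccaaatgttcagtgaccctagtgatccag
Cyp4a8: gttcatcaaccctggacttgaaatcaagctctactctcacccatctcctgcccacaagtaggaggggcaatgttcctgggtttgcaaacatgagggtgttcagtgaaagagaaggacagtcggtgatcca

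Cyp2c11, a steroid hydroxylase known for its male-specific expression in liver and also an arachidonate epoxygenase, read 3.16, 4.51, 6.37 and 0.662 in controls. After allopurinol all 4 arrays were at the floor and none was well above background. With no measured level on the treated side, the control mean of Cyp2c11 was set against a limit. This limit was the dimmest signal that any probe well above background had on each treated array. The control mean lay 273-fold above it. This limit is the lowest of its kind, so the true fold may be smaller. The limma fit, with all treated arrays set at the floor, gave an adjusted p of 6.95e-05, which does not test that fold. With normexp, a background correction that adds an offset of 50 before the logarithm, the estimates were -3.19 and -3.39, both called. Cyp2c23, the main epoxygenase of rat kidney, was present in every sample, at 39.2, 38.7, 45.5 and 38.8 in controls and 2.13, 2.34, 3.63 and 2.47 after allopurinol. The spread within each group was small beside the gap. Cyp2c23 fell by 3.97 on the log2 scale (SE 0.22, adjusted p = 2.68e-05), or 15.7-fold. Cyp2c24 was not called: controls 1 and 3 stood at 5.40 and 5.39, controls 2 and 4 at 0.0145 and the floor, and the treated arrays between 0.00501 and 0.108. Its controls thus split widely, which left a difference of -2.96 ± 2.50 (adjusted p = 0.423). The other 5 Cyp2c genes with a probe, Cyp2c6v1, Cyp2c7, Cyp2c12, Cyp2c13 and Cyp2c22, were well above background on no array.

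Cyp2j4, an arachidonate-oxidising enzyme, read 2.77, 2.85, 3.89 and 2.40 in controls and 0.384, 0.640, 0.553 and 0.430 after allopurinol. No treated array reached a control array. The difference was -2.58 ± 0.25 (adjusted p = 0.000330), and a second probe gave -2.49. Cyp2j3 was not called (-1.28 ± 0.99, adjusted p = 0.381), and Cyp2j10 was well above background on 2 allopurinol arrays only.

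The Cyp4f enzymes hydroxylate leukotrienes and arachidonate, and 6 of the 7 with a probe were tested. Of these, 2 were called lower: Cyp4f1 ranged from 59.3 to 72.0 in controls and from 12.5 to 20.3 after allopurinol, and Cyp4f40 from 3.52 to 8.80 and from 0.854 to 1.82. The groups of both genes were apart. Their differences were -2.15 ± 0.22 (adjusted p = 0.000407) and -2.29 ± 0.39 (adjusted p = 0.00482). Cyp4f6 was not called, at 1.25, 2.58, 1.64 and 1.76 in controls and 1.83, 1.57, 1.40 and 1.35 after allopurinol. All of its treated values lay within the control range. Cyp4f6 had a difference of -0.19 ± 0.26 (adjusted p = 0.622), and 0.45 without scaling. Cyp4f5, Cyp4f17 and Cyp4f18 were not called either, at 0.20, 1.05 and -0.04, with Cyp4f17 called higher without control 1 and without scaling, while Cyp4f4 was well above background on no array.

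**Figure D2:**
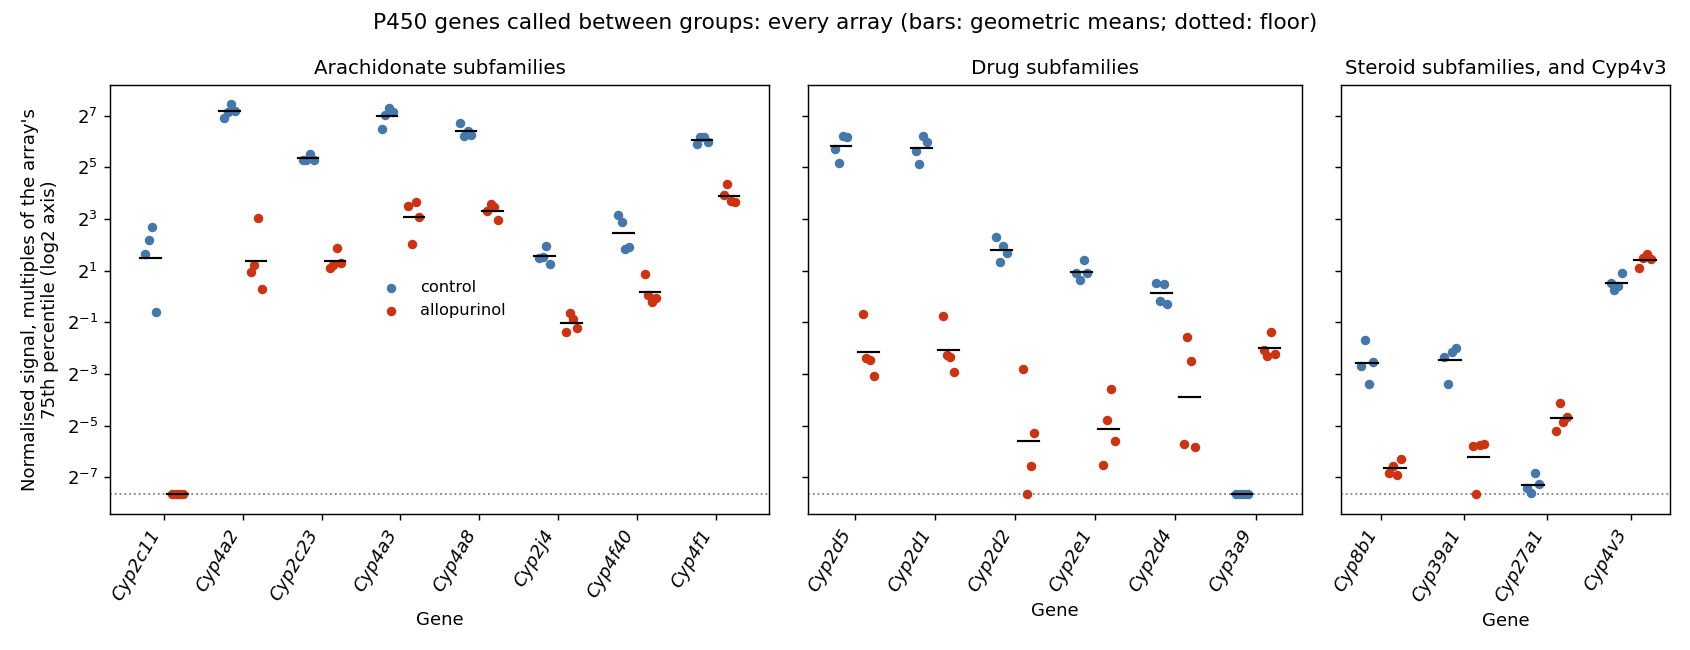
Normalised signal (y axis, log2 scale, multiples of the array's 75th percentile) on every array for the 18 P450 genes called (x axis), by subfamily group; blue points are control arrays, red points allopurinol arrays, short bars geometric means and the dotted line the floor at 0.005. Groups are apart for all 18 genes shown, which their choice by a call on the same arrays favours. Over everything tested, groups did not overlap for 29.9%. Cyp2c11 lies on the floor after allopurinol and Cyp3a9 in controls.

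The drug subfamilies (Cyp1a, Cyp1b, Cyp2a, Cyp2b, Cyp2d, Cyp2e, Cyp2f, Cyp2g, Cyp2s and Cyp3a) held 25 genes. Of 16 tested, 5 were lower, 1 was higher and 10 were not called, with a median log2 difference of -0.31. That is 37.5% called, against 23.5% of everything tested. The 5 lower ones were 4 of the 5 Cyp2d genes, relatives of the human enzyme that oxidises debrisoquine, and Cyp2e1. The one higher was Cyp3a9.

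Cyp2d5 read 52.3, 36.1, 74.5 and 71.3 in controls and 0.631, 0.193, 0.183 and 0.119 after allopurinol. Cyp2d1 read 49.2, 34.8, 73.1 and 63.7 in controls and 0.589, 0.208, 0.198 and 0.132 after allopurinol. Both genes had the same order of control arrays and their highest treated value on allopurinol array 1. Cyp2d5 fell by 7.96 (SE 0.52, adjusted p = 5.32e-05) and Cyp2d1 fell by 7.80 (SE 0.47, adjusted p = 4.22e-05) on the log2 scale, or 248-fold and 223-fold. As close paralogs they may share labelled RNA, so the reading of each is uncertain; their promoter windows were 73.7% identical. Cyp2d2, whose product oxidises debrisoquine in the rat, read 4.90, 2.51, 3.85 and 3.18 in controls and 0.143, the floor, 0.0106 and 0.0256 after allopurinol. Allopurinol array 1 was again the highest of the treated arrays, and 3 of the 4 were well above background. The difference of Cyp2d2 was -7.39 ± 0.93 (adjusted p = 0.00112), and -3.63 and -3.58 with normexp. Cyp2d4, the member known from brain, read 1.43, 0.891, 1.40 and 0.816 in controls and 0.0190, 0.335, 0.179 and 0.0177 after allopurinol. Its treated arrays spread widely below the controls. The difference was -4.04 ± 0.98 (adjusted p = 0.0217); it lost its call without control 1 or allopurinol 4, at adjusted p of up to 0.0526, and under normexp scaled to the 75th percentile (-1.56, adjusted p = 0.112), while normexp with quantile normalization gave -1.76. Cyp2d3 was not called, at 0.35 ± 0.40 (adjusted p = 0.556), and lay between 0.0129 and 0.0548 over all arrays. Its promoter window was 88.5% identical to that of Cyp2d1.

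Cyp2e1, which oxidises ethanol and other small molecules, read 1.85, 1.54, 2.66 and 1.87 in controls and 0.0109, 0.0363, 0.0839 and 0.0208 after allopurinol. The control arrays lay close together, and all treated arrays, of which 3 of 4 were well above background, were far below them. The difference was -6.08 ± 0.58 (adjusted p = 0.000313), and -2.78 and -2.52 with normexp. Cyp3a9, of the Cyp3a subfamily that oxidises drugs and steroids, was at the floor on all 4 control arrays and read 0.240, 0.205, 0.385 and 0.212 after allopurinol. No control array was well above background and every treated array was. The treated mean of Cyp3a9 lay 15.7-fold above the same kind of limit on the control arrays, and the true fold may be smaller. The limma fit, with all controls set at the floor, gave an adjusted p of 1.21e-05, which does not test that fold. The fitted log2 difference of Cyp3a9 was 5.66 at the floor used and 3.66 at a floor of 0.02. With normexp it was 1.57 and 1.02, and all of these were called. The other 4 Cyp3a genes with a probe, Cyp3a2, Cyp3a18, Cyp3a23-3a1 and Cyp3a62, were well above background on no array.

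Among the uncalled drug genes, Cyp2s1 read 1.71, 0.740, 0.292 and 0.295 in controls and 0.412, 0.288, 0.158 and 0.288 after allopurinol. Control 1 stood above all other arrays and the groups overlapped (-1.08 ± 0.60, adjusted p = 0.231). Cyp2f4, known from lung, read 0.614, 0.958, 0.115 and 0.0163 in controls and 0.0882, 0.425, 0.918 and 1.04 after allopurinol. On slide 1 the controls were the higher group and on slide 2 the treated arrays were, with differences of -1.99 and 4.50; over all arrays it was 1.26 ± 1.36 (adjusted p = 0.535). The 5 Cyp2b genes, which respond to phenobarbital in liver, were all tested and none was called. In this subfamily the 2 kept probes of Cyp2b3 disagreed. The probe used read 0.0780, 0.0893, 0.0977 and 0.0755 in controls and 0.115, 0.119, 0.142 and 0.0893 after allopurinol (0.44 ± 0.21, adjusted p = 0.171), and the other probe gave -2.01; their mean was called lower (-0.79, adjusted p = 0.0409). No direction is given for Cyp2b3. Cyp1a2 and Cyp1b1, targets of the aryl hydrocarbon receptor, had differences of 0.07 ± 0.49 and 2.15 ± 1.16 and were not called. Cyp1a1, the classical target of that receptor, was well above background on no array, nor were Cyp2a1, Cyp2a3 and Cyp2g1. Cyp2a2 was above it on 3 allopurinol arrays.

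The steroid subfamilies (steroid hormones, cholesterol and bile acids) held 11 genes. Of 9 tested, 2 were lower, 1 was higher and 6 were not called. That is 33.3% called, from few genes, against 23.5% of everything tested. The called genes were Cyp8b1, Cyp39a1 and Cyp27a1.

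Cyp8b1, the sterol hydroxylase that sets the share of cholic acid, read 0.156, 0.311, 0.0954 and 0.173 in controls and 0.00889, 0.0105, 0.00831 and 0.0127 after allopurinol. Groups were apart, but only 1 treated array was well above background. The fitted difference, with most of the treated side not measured above background, was -4.08 ± 0.36 (adjusted p = 0.000210); the combination of normexp and the 75th percentile gave -0.33 (adjusted p = 0.749, not called), and normexp with quantile normalization -0.83 (called). Cyp39a1, an oxysterol hydroxylase, read 0.195, 0.0957, 0.227 and 0.248 in controls and 0.0181, the floor, 0.0188 and 0.0191 after allopurinol. All treated arrays were below all controls, with allopurinol array 2 at the floor and 3 of the 4 well above background. The difference was -3.75 ± 0.52 (adjusted p = 0.00174); those settings gave -0.33 (adjusted p = 0.745, not called) and -0.86 (called). Cyp27a1, the mitochondrial hydroxylase of the sterol side chain, read 0.00586, 0.00517, 0.00872 and 0.00660 in controls and 0.0275, 0.0581, 0.0343 and 0.0390 after allopurinol. No control array was well above background and all treated arrays were. The treated mean of Cyp27a1 lay 2.38-fold above the kind of limit used for Cyp3a9, and the true fold may be smaller. The limma fit, with no control above background, gave an adjusted p of 0.000642, which does not test that fold. The fitted log2 difference of Cyp27a1 was 2.56, or 0.93 at a floor of 0.02. Under both forms of normexp Cyp27a1 was not called, at 0.72 and 0.16 on the log2 scale and adjusted p of up to 0.537.

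Enzymes of adrenal steroid synthesis were not called. Cyp21a1, a steroid hydroxylase of the adrenal cortex, read 0.519, 0.289, 0.686 and 2.15 in controls and 0.190, 0.300, 0.586 and 0.189 after allopurinol. The groups overlapped, with control 4 the highest (-1.28 ± 0.64, adjusted p = 0.186). Cyp11b3, of the subfamily that completes corticosteroid synthesis, read 0.168, 0.186, 0.232 and 0.162 in controls and 0.150, 0.199, 0.134 and 0.124 after allopurinol. Its groups overlapped as well; the difference was -0.31 ± 0.23 (adjusted p = 0.353), and 0.33 without scaling and 0.29 with normexp and the 75th percentile. Cyp11b1, Cyp11b2, Cyp17a1 and Cyp7b1 were not called either, at -0.63 ± 0.42, -0.05 ± 0.27, 1.15 ± 0.93 and 0.88 ± 0.70. For Cyp17a1 allopurinol 1 (0.736) stood far above all other arrays, and for Cyp7b1 control 3 (0.00947) far below them. Cyp11a1, which starts steroid synthesis, was well above background on 3 allopurinol arrays and no control array, and Cyp7a1, the rate-limiting enzyme of bile acid synthesis in liver, was at the floor on all 8. Markers of adrenal cortex stood beside these values: 3 of 5 were tested, Mrap was lower (-5.78 ± 0.37, adjusted p = 4.90e-05), Mc2r and Nr5a1 were not called (-0.81 ± 0.97, adjusted p = 0.577, and -0.02 ± 0.30, adjusted p = 0.963), and Akr1b7 was at the floor on all arrays. The summed level was 3.47 to 4.82 in controls, of which Mrap made up 3.44 to 4.77, and 0.0811 to 0.201 after allopurinol. Their part in the steroid P450 values was not tested.

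Of the 3 genes for retinoids and vitamin D, Cyp26a1 and Cyp2r1 were tested and neither was called. Cyp26a1, which breaks down retinoic acid, read 0.0146, 0.0249, 0.423 and 0.0573 in controls and 0.155, 0.532, 0.231 and 0.459 after allopurinol. Control 3 alone reached the treated range (2.49 ± 1.0, adjusted p = 0.112); Cyp26a1 was called higher without that array, at 3.47, and without scaling. Cyp2r1, a vitamin D hydroxylase, read 0.0359, 0.148, 0.0220 and 0.0193 in controls and 0.0389, 0.0266, 0.0191 and 0.0472 after allopurinol. Control 2 stood above the rest, and the sign of the difference (-0.32 ± 0.65, adjusted p = 0.753) turned without it, to 0.33, and without scaling, to 0.32. Cyp26b1 was well above background on 3 arrays and not tested.

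In the 5 remaining subfamilies, Cyp4v3, a fatty acid hydroxylase, rose: it read 1.44, 1.2, 1.33 and 1.86 in controls and 2.12, 2.79, 3.11 and 2.72 after allopurinol. Every treated array was above every control array. The difference was 0.88 ± 0.22 (adjusted p = 0.0245), or 1.84-fold, and a second probe gave 1.81; the mean of both probes gave 1.35 and the unscaled signal 1.52. The call was lost with normexp and the 75th percentile (0.71), and without any 1 of 6 arrays (controls 1, 2 and 3 and allopurinol 2, 3 and 4) at adjusted p of up to 0.063. Cyp20a1, a P450 of no settled substrate, read 0.803, 0.300, 1.18 and 0.748 in controls and 0.587, 0.453, 0.315 and 0.585 after allopurinol. The treated values lay within the control range (-0.53 ± 0.44, adjusted p = 0.411; 0.11 without scaling). Cyp2t1 read 1.63, 1.60, 1.71 and 0.668 in controls and 0.884, 1.07, 1.14 and 0.965 after allopurinol. All controls but control 4 were above the treated arrays (-0.38 ± 0.33, adjusted p = 0.439; 0.26 without scaling). Cyp4b1 was not called (-0.12 ± 1.07, adjusted p = 0.946) and Cyp4x1 was above background on 1 array.

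On each slide taken alone, all 18 called genes kept their sign, as they had to, because their groups did not overlap over the 8 arrays. With the slide as a block the same 15 were lower and the same 3 higher. Cyp2c11 differed by -9.56 on slide 1 and -8.68 on slide 2, Cyp4a2 by -5.94 and -5.63, Cyp2c23 by -4.12 and -3.81, and Cyp3a9 by 5.47 and 5.84. For Cyp2c11 and Cyp3a9 one whole group lay at the floor, so these sizes depend on it. For the pair Cyp2d1 and Cyp2d5 the differences were -6.88 and -6.96 on slide 1 and -8.72 and -8.95 on slide 2; allopurinol array 1, the highest treated array for both, was on slide 1. With 2 arrays a group, 8 genes were called lower on slide 1 and 7 on slide 2, and Cyp3a9 was higher on both. Over all genes, 2.39% was lower and 2.38% higher on slide 1, and 1.3% and 1.76% on slide 2.

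**Figure D3:**
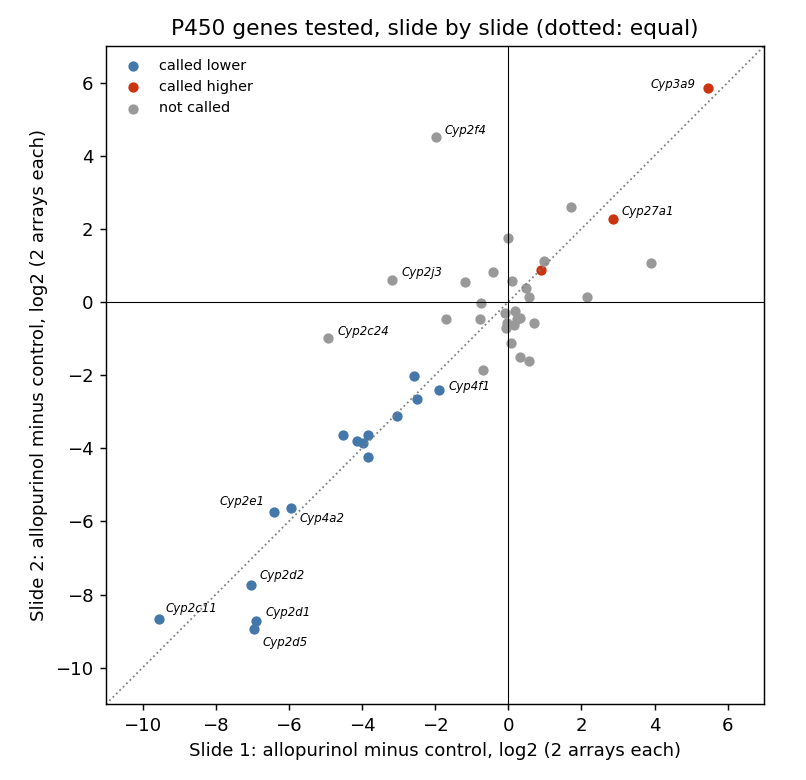
Log2 difference between allopurinol and control on slide 1 (x axis) and slide 2 (y axis), with 2 arrays a group on each, for the 46 P450 genes tested; blue points are genes called lower over all 8 arrays, red points genes called higher, grey points genes not called, and the dotted line marks equal values. Most called genes lie near that line, which their choice by a call over the same arrays favours. Cyp2d1 (-6.88 and -8.72) and Cyp2d5 (-6.96 and -8.95), called lower, lie further off. Cyp2f4 (-1.99 and 4.50), Cyp2j3 (-3.17 and 0.61) and Cyp2c24 (-4.92 and -1.0), not called, lie far from it.

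Promoter windows were found in the RefSeq table for 53 of the 66 P450 genes, 55 windows in all, and for 17 of the 18 called. Each was searched on both strands for AGGTCA and for TNGCGTG, the core of the element bound by the aryl hydrocarbon receptor; each motif was counted on its own, whether or not it overlapped the other. AGGTCA was in 20 of the 55 windows, or 36.4%, against 16.2% of all 33469 windows of the same length. Among the genes called lower 6 of 15 windows held it, or 40.0%, and among genes tested and not called 8 of 23, or 34.8%. Among genes not tested 5 of 15 held it, or 33.3%, and among genes called higher 1 of 2. That 1 was Cyp27a1, with AGGTCA at -115 and its reverse complement at -236. TNGCGTG was in 2 of 55 windows, or 3.64%, against 4.89% of all, and in 0 of the 15 of genes called lower. Related genes share sequence, so their windows are not independent, and a match is a description of letters only.

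The AGGTCA matches in genes called lower outside the Cyp4a cluster are shown with 20 bases on each side, 5′ to 3′ along the gene, with the motif or its reverse complement in capitals. They lie at chr1:246175073-246175118 (plus strand, AGGTCA at -123), chr1:205269747-205269792 (plus, -200), chr7:12342472-12342517 (plus, reverse complement at -98) and chr9:24804240-24804285 (minus, -205).
Cyp2c11: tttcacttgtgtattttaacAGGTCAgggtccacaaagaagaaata
Cyp2e1: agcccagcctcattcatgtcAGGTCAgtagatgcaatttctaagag
Cyp4f40: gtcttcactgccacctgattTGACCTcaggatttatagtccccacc
Cyp39a1: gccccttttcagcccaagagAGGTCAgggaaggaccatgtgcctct

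Proteins that supply P450 enzymes with electrons were read next, from a list of 8 genes. All were tested; 4 were lower (50%, against 11.5% of everything tested) and none was higher. Cyb5a, the cytochrome b5 of the endoplasmic reticulum, read 14.5, 13.4, 12.3 and 13.2 in controls and 2.06, 1.97, 2.07 and 2.06 after allopurinol. Both groups were tight and far apart (-2.71 ± 0.16, adjusted p = 4.12e-05). Fdx1, the ferredoxin of mitochondrial P450 enzymes, was lower as well (-1.64 ± 0.29, adjusted p = 0.00530). Pgrmc1, a haem-binding partner of P450 enzymes, and Cyb5b, the cytochrome b5 of mitochondria, were lower by 1.30 and 1.24, calls that other settings lost at adjusted p of up to 0.108 and 0.189. Por, the reductase on which all microsomal P450 enzymes depend, was not called: it read 0.924, 1.28, 1.18 and 0.389 in controls and 0.185, 0.703, 1.5 and 0.596 after allopurinol. Its groups overlapped throughout (-0.56 ± 0.66, adjusted p = 0.571).

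The 8 enzymes of haem synthesis gave 2 lower and 1 higher, or 37.5% called against 23.5% of everything tested. Alad and Ppox were lower, at -1.27 and -0.99, and Cpox higher, at 1.23; other settings lost each of these calls, at adjusted p of up to 0.0925, 0.370 and 0.149. Alas1, the first and rate-limiting step, was not called (0.10 ± 0.32, adjusted p = 0.837). Of the 4 genes of haem breakdown 2 were lower (50%). Blvra, a biliverdin reductase, read 24.8, 11.8, 14.9 and 17.4 in controls and 1.56, 1.23, 0.995 and 1.09 after allopurinol. Blvra groups were far apart (-3.79 ± 0.28, adjusted p = 8.83e-05). Hmox2 was lower by 1.04, a call lost elsewhere at adjusted p of up to 0.402. Hmox1, the inducible haem oxygenase, was not called (0.21 ± 0.31, adjusted p = 0.657).

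Among 12 transcription factors and receptors known to regulate P450 genes, 2 were lower (16.7%, near the 11.5% of everything tested) and none was higher. Hnf4a, a receptor-like factor of liver and proximal tubule, read 6.36, 5.68, 4.01 and 3.98 in controls and 1.26, 0.950, 0.537 and 1.03 after allopurinol. The groups of Hnf4a did not overlap (-2.44 ± 0.32, adjusted p = 0.00126). Nr1h3, an oxysterol receptor, was lower at -1.35, a call lost elsewhere at adjusted p of up to 0.134. The receptors for foreign compounds were not called, and neither was Ppara, a fatty acid receptor: Ahr stood at -0.22 ± 0.33, Nr1i2 at -0.20 ± 0.61, Nr1i3 at 0.93 ± 0.91 and Ppara at -1.10 ± 0.72.

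Of 12 genes that handle arachidonate outside the P450 family 9 were tested, with 2 lower and 3 higher (22.2% and 33.3%, against 11.5% and 11.9% of everything tested). Ephx1, a microsomal epoxide hydrolase, read 11.7, 8.44, 8.94 and 7.14 in controls and 1.52, 1.04, 0.270 and 0.723 after allopurinol. Ephx1 groups were far apart (-3.58 ± 0.51, adjusted p = 0.00197). Ephx2, the soluble hydrolase that opens arachidonate epoxides, was lower at -2.62, while Ptgs1 (a cyclooxygenase), Tbxas1 (thromboxane synthase, itself of P450 type) and Pla2g4a (the phospholipase that frees arachidonate) were higher at 3.70, 2.68 and 2.01. Each of these 4 calls was lost under another setting, at adjusted p of up to 0.913, 0.244, 0.0764 and 0.058. Ptgs2 did not pass background on any array. Of 8 steroid genes 6 were tested; 2 were lower (33.3%) and none was higher. Hsd11b1, which interconverts cortisone-type and cortisol-type steroids, read 98.6, 111, 98.9 and 105 in controls and 13.5, 24.2, 16.3 and 12.3 after allopurinol. No treated array came near a control array (-2.69 ± 0.25, adjusted p = 0.000253). Hsd17b1 was lower at -3.76, a call lost elsewhere at adjusted p of up to 0.371.

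**Figure D4:**
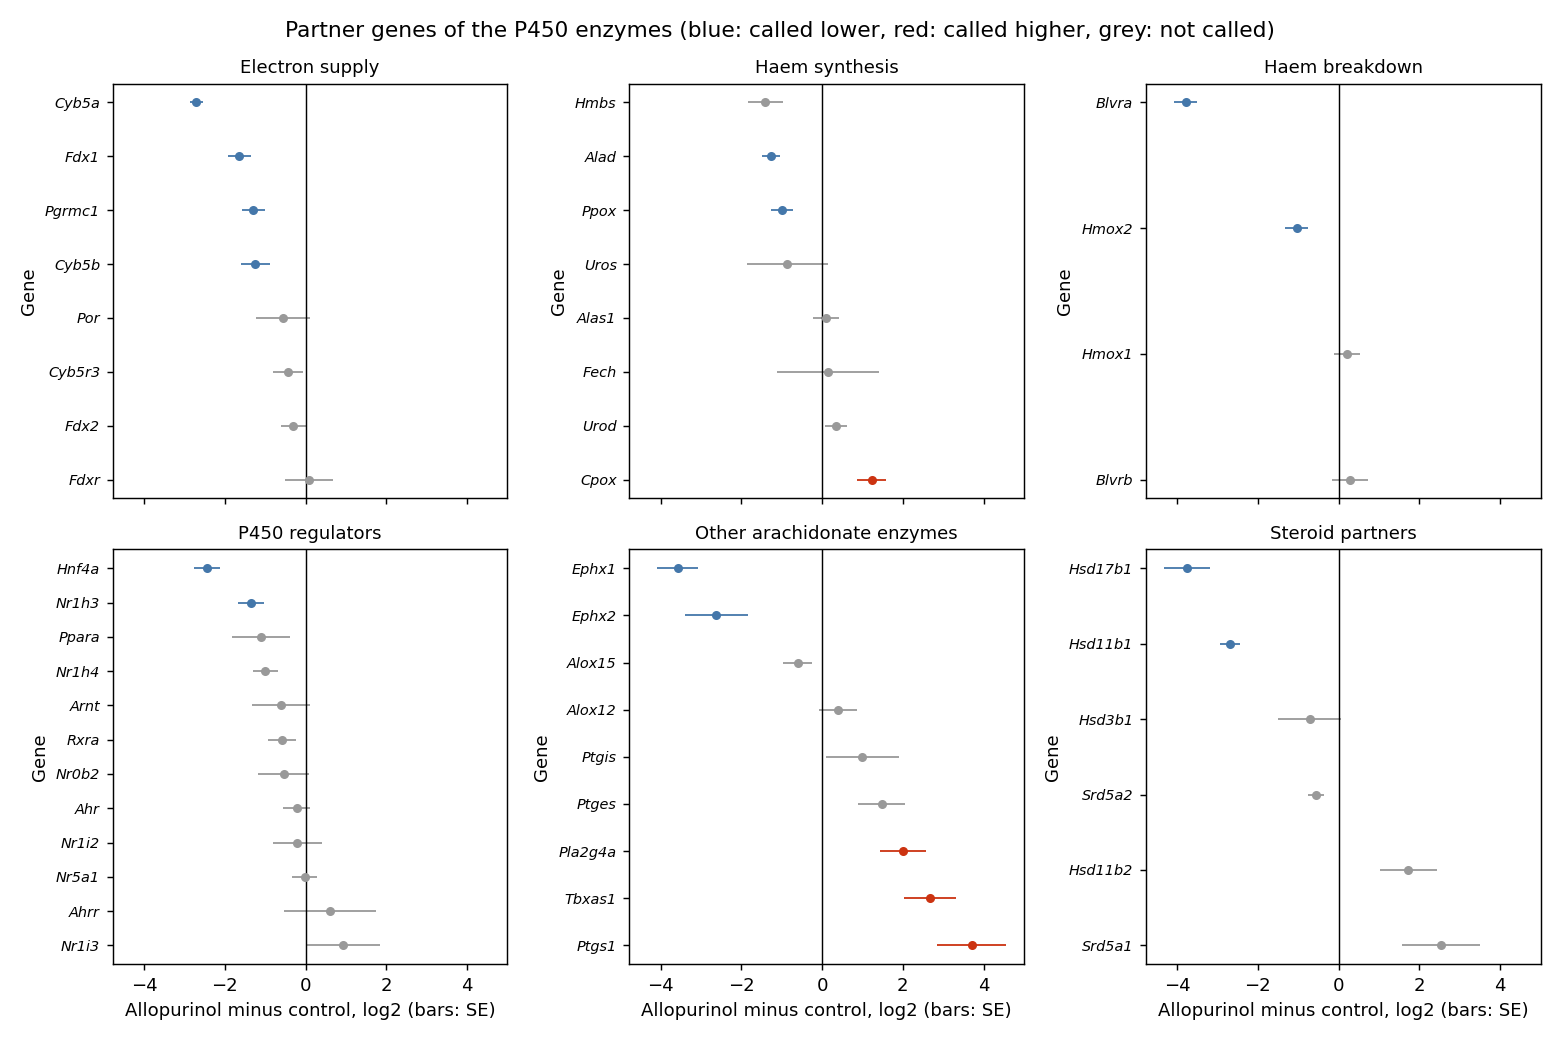
Log2 difference between allopurinol and control (x axis) with its standard error (bars, n = 4 in each group) for the genes tested and reported of 6 lists of P450 partners (y axis); blue is called lower, red called higher and grey not called. Cyb5a (-2.71), Blvra (-3.79), Hnf4a (-2.44), Ephx1 (-3.58) and Hsd11b1 (-2.69) lie left of 0, Ptgs1 (3.70) right of it, and Por (-0.56), Alas1 (0.10) and Ahr (-0.22) near it.

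Markers of several cell types also differed between the groups, some lower and some higher. Beside the counts below, 11.5% of everything tested was lower and 11.9% higher. Of 11 proximal tubule markers 8 were lower and 2 higher (72.7% and 18.2%). The summed level of the list went from 587 to 674 in controls to 37.9 to 56.1 after allopurinol. The lower ones were Slc7a13 (-8.58), Pck1 (-6.54), Slc22a6 (-6.51), Miox (-5.64), Slc22a8 (-5.09), Slc34a1 (-4.53), Ggt1 (-2.95) and Lrp2 (-2.15), and the list median was -4.53. Slc5a2 was higher at 3.04 and Slc5a12 at 4.61, the latter call lost elsewhere at adjusted p of up to 0.0724, and Cubn was not called (-0.53 ± 0.22, adjusted p = 0.116). None of these markers was at the floor on all arrays of a group. Of 7 markers of thick limb, distal tubule and collecting duct 1 was lower (Umod, -3.85) and 1 higher (Aqp2, 1.93), calls lost elsewhere at adjusted p of up to 0.0571 and 0.0777. Their summed level, mostly Umod in controls, was 42.7 to 61.6 there and 7.70 to 27.2 after allopurinol. Endothelial markers were lower in 3 of 4 cases, with sums of 3.51 to 6.21 and 0.349 to 0.611; of these Kdr kept its call, and Pecam1 and Tek lost theirs elsewhere at adjusted p of up to 0.408 and 0.959. Podocyte markers were lower in 1 of 3 cases, with 1.78 to 3 and 0.558 to 0.958. Macrophage markers were higher in 3 of 6 cases (Cd68, Cd14 and Lyz2, at 2.62, 5.13 and 1.69). Csf1r, Adgre1 and C1qa were not called, at -0.24, -0.34 and 1.63. The macrophage sums were 3.74 to 9.85 in controls and 15.7 to 20 after allopurinol. Fibroblast markers were higher in 2 of 5 cases (Col1a1 and Col3a1, at 2.12 and 2.015), with sums of 12.2 to 15.1 and 28.5 to 90.4. Col1a2, Pdgfrb and Dcn were not called, at 0.62, 0.22 and -0.21. Hepatocyte markers gave 1 lower (F2, -6.87) of 3 tested, with sums of 3.30 to 4.09 and 0.645 to 3.56. The part of these shifts in the P450 values was not tested.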

How the data were processed

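Per the file headers, the authors read the arrays (design 028282, header build rn4) with Agilent Feature Extraction 10.5.1.1, and the deposited intensity values include a processed signal already corrected for background. Per the labels, total RNA was taken up with RNeasy columns and carried Cy3; the kit given for labelling is a DNA kit. A further deposited table holds the authors' log2 values. Set against the scanner files, it is log2 of the processed signal over the 75th percentile, centred per probe (r of 0.9992 to 0.9997 per array; column medians 0.0338, 0.0662, 0.0771 and 0.00597 for controls 1 to 4 and -0.0724, 0.0186, -0.136 and -0.0445 for allopurinol 1 to 4), with small differences of unknown source.

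Non-uniform spots (2 to 64 of 42877 per array) were left out and spots of a probe averaged. Of 30367 probes, 18643 had 1 symbol, 0 had several and 11724 were unnamed here; 24343 passed the filter. A gene was its kept probe with the highest mean. The fit used lmFit and eBayes of limma 3.58.1 (R 4.3.3), tested on simulated data; errors after ± are moderated standard errors, n = 4 each, unless an SD is named. Replicate numbers did not pair the samples: same-numbered deviations correlated at 0.0109, 0.0102, 0.0482 and -0.0157. Alternatives covered the floor, filter, probe rule, scaling, background, slide, block and each array left out.

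Members, lists, tests and the rule for named genes were chosen with earlier results on these data known. That rule names every called gene, and gives each sample's value for up to 6 called genes a group, the 2 uncalled with the highest mean, and those whose probes disagree; Cyp2c24 and single partner or marker genes were picked after their values were seen. Some planned partner genes and 1 promoter motif are not reported here.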

Additional observations from a re-analysis of the deposited data

Results flagged for a closer look

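In 5 of the 92 groups of 4 arrays looked at, over the 46 P450 genes tested, 1 array lay far from the other 3 by Dixon's test of the gap, which chance passes in about 1 in 20 groups. For Cyp2c23, control 3 stood at 45.5 and the other controls at 38.7 to 39.2. For Cyp2t1, control 4 stood at 0.668 and the others at 1.60 to 1.71. For Cyp17a1, allopurinol 1 stood at 0.736 and the others at 0.0359 to 0.0569. For Cyp39a1, allopurinol 2 stood at the floor of 0.005 and the others at 0.0181 to 0.0191. For Cyp7b1, control 3 stood at 0.00947 and the others at 0.0652 to 0.0939. These are levels in multiples of the array's 75th percentile. Cyp2c23 and Cyp39a1 kept their calls without each array in turn.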

How the results depend on the processing

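All 18 called P450 genes kept their direction under every alternative that tested them. Their groups did not overlap, so settings that only changed the floor, added a block, took 1 slide or left out 1 array could not turn it. The filter settings gave these genes the same estimates as the main fit. The filter on all 8 arrays tested 11 of them and called 10 lower and 1 higher. Genes called lower numbered 15 in most settings, 16 with the mean of probes, 12 with normexp and the 75th percentile, 8 on slide 1 and 7 on slide 2. Genes called higher numbered 3, but 7 without scaling, 1 with normexp and the 75th percentile, 2 with normexp and quantile normalization (Cyp27a1 lost), and 1 on each slide. Over all genes, normexp and the 75th percentile gave 4.63% lower and 4.99% higher, against 11.5% and 11.9% in the main fit. Leaving out 1 array at a time gave 14 to 15 lower and 2 to 3 higher. With the replicate block, which the check of pairing did not bear out, 15 were lower and 2 higher, Cyp4v3 being lost. The cause of these shifts was not tested, except that each slide holds 2 arrays a group and the stricter filter tests fewer genes. The P450 median turned to 0.18 without scaling and 0.118 with normexp and the 75th percentile, where the median of all genes was 0.605 and 0.358; set against all genes it was -0.429 in the main fit, -0.425 unscaled, -0.24 under normexp scaled to that percentile, and -0.181 under quantile-normalized normexp. Of the 28 uncalled genes 13 changed sign without scaling, 9 with normexp and the 75th percentile, 9 on slide 1 and 3 on slide 2, and at most 4 when 1 array was left out. Those given sample by sample were, without scaling, Cyp11b3 (0.325), Cyp20a1 (0.107), Cyp2r1 (0.32), Cyp2t1 (0.259), Cyp4a1 (0.111) and Cyp4f6 (0.445); with normexp and the 75th percentile, Cyp11b3 (0.295) and Cyp2r1 (0.415); on slide 1, Cyp20a1 (0.071), Cyp2f4 (-1.99) and Cyp4a1 (0.57); and on slide 2, Cyp2r1 (0.544). The mean of probes turned Cyp2b3 to -0.788. Leaving out 1 array gave Cyp2r1 between -0.654 and 0.326 (turned without control 2) and Cyp4a1 between -1.07 and 0.0651 (turned without control 3). With normexp, the log2 differences of Cyp2c11, Cyp2d2, Cyp2d4, Cyp2e1, Cyp8b1, Cyp39a1, Cyp3a9 and Cyp27a1 shrank by over 1.5 times, so their sizes are uncertain. Whether signal near background lay behind this was not tested.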
